A study of Homo sapiens with 12 samples.

Results

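The transcripts described here encode RAS proteins and the proteins that switch them off. They comprised 5 RAS genes (HRAS, NRAS, RRAS, RRAS2 and MRAS) and 4 RAS GTPase-activating proteins, or RAS GAPs (NF1, RASA1, RASA3 and RASAL2). The 9 genes were taken by symbol from a table of 62069 genes, and each had counts in all 12 libraries. IMR90 ER:RAS cells are human lung fibroblasts of IMR90, a widely used cell line of finite lifespan, that carry RAS fused to the oestrogen receptor (ER), and 4-hydroxytamoxifen (4OHT) binds the receptor part of the fusion and triggers oncogene-induced senescence (OIS).

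RNA sequencing covered 4 groups of 3 libraries, all of the ER:RAS line at passage 13 and labelled day 5 after induction. The vector group was not induced, and vector/4OHT received 100 nM 4OHT. The shXPO7_3/4OHT and shXPO7_5/4OHT groups received the same dose and carried an shRNA against XPO7, a nuclear transport receptor. Every group therefore carried the RAS fusion, and no group had a knockdown without 4OHT. The name vector follows the study, where it stands for a nontargeting control, whereas the labels call these 2 groups non-induced and induced. Neither the RAS gene in the fusion nor its allele was stated for these libraries in the sources used here. The labels do not say whether the libraries came from separate cultures, so p-values measure the spread between libraries, which may be technical.

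RAS proteins are small GTPases that signal when bound to GTP. Exchange factors load them with GTP, and RAS GAPs accelerate GTP hydrolysis and return them to the inactive state. Active RAS engages RAF kinases, PI3 kinases and exchange factors for the RAL GTPases, and RAF starts the MEK and ERK kinase cascade. In primary fibroblasts, sustained signalling from oncogenic RAS is a classical trigger of senescence.

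Library totals ran from 28534141 to 60397769 counts. XPO7 itself was lower in both knockdown groups, at 26.4 to 28.7 CPM (counts scaled to a common library size by TMM) with shXPO7_3 and 50.8 to 54.0 CPM with shXPO7_5, against 127 to 144 CPM in vector/4OHT. All 10 fibroblast markers exceeded 1 CPM in each group. The 3 epithelial markers together reached at most 1.24 CPM and the 4 blood markers at most 0.538 CPM, and KRT5, PECAM1, CDH5 and CD3E had no count. VWF, an endothelial marker, was at 1.70 to 4.17 CPM. The libraries differed in how their counts depended on GC content. Across genes, Spearman's rho between transcript GC content and a library's log2 difference from the vector/4OHT mean was 0.598, 0.109 and 0.770 in shXPO7_5/4OHT replicates T, A and B. In shXPO7_3/4OHT it was 0.567 in replicate T, -0.334 in A and -0.250 in B. The rho was 0.301, 0.123 and -0.0485 in vector replicates T, A and C. Vector/4OHT replicates T, A and B had -0.175, -0.201 and 0.308.

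The members can be told apart by their sequences, which matters because the RAS genes are paralogs. In all 36 pairs of members, the longest identical stretch shared by the coding sequences of the annotation (GENCODE 29) was between 9 and 23 bases. HRAS and NRAS, whose coding sequences are 570 bases each, shared at most 14 bases in a row. The longest stretch belonged to RRAS and RRAS2, at base 136 of the RRAS coding sequence and base 91 of that of RRAS2, and is shown because it was the one stretch of 20 bases or more:
RRAS and RRAS2: accatccagttcatccagtccta
A fusion that holds RAS coding sequence is another matter. Reads from it and from the chromosomal HRAS gene cannot be told apart in the HRAS row if the fusion holds HRAS sequence.

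Of 16 pseudogenes and near copies of the members that were looked up, 8 were matched in the table by identifier. All 8 were copies of RRAS2 or NF1. HRASP, NRASP1 and NRASP were not matched, so reads on copies of HRAS and NRAS were not examined. The matched copies held almost no reads: RRAS2P1 had 5 counts, NF1P2 had 2 and NF1P8 had 1 over all 12 libraries, and the other matched ones had none.

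Induction of ER:RAS was accompanied by different changes in different members, and 5 of the 9 passed the test (adjusted p under 0.05 in edgeR's quasi-likelihood test). Among all 15284 genes tested, 50.9% were called, so the share of members called was close to that of the whole transcriptome. HRAS, RASA1 and NF1 were higher (24.8% of all genes were called higher), and RRAS2 and RRAS were lower (26.1% were called lower). NRAS, MRAS, RASA3 and RASAL2 did not pass. In these 5 genes, and in no other member, the vector/4OHT libraries did not overlap the vector libraries, which held for 63.2% of all genes tested. In bulk RNA, fewer cells of a kind and less RNA per cell cannot be told apart.

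**Figure D1:**
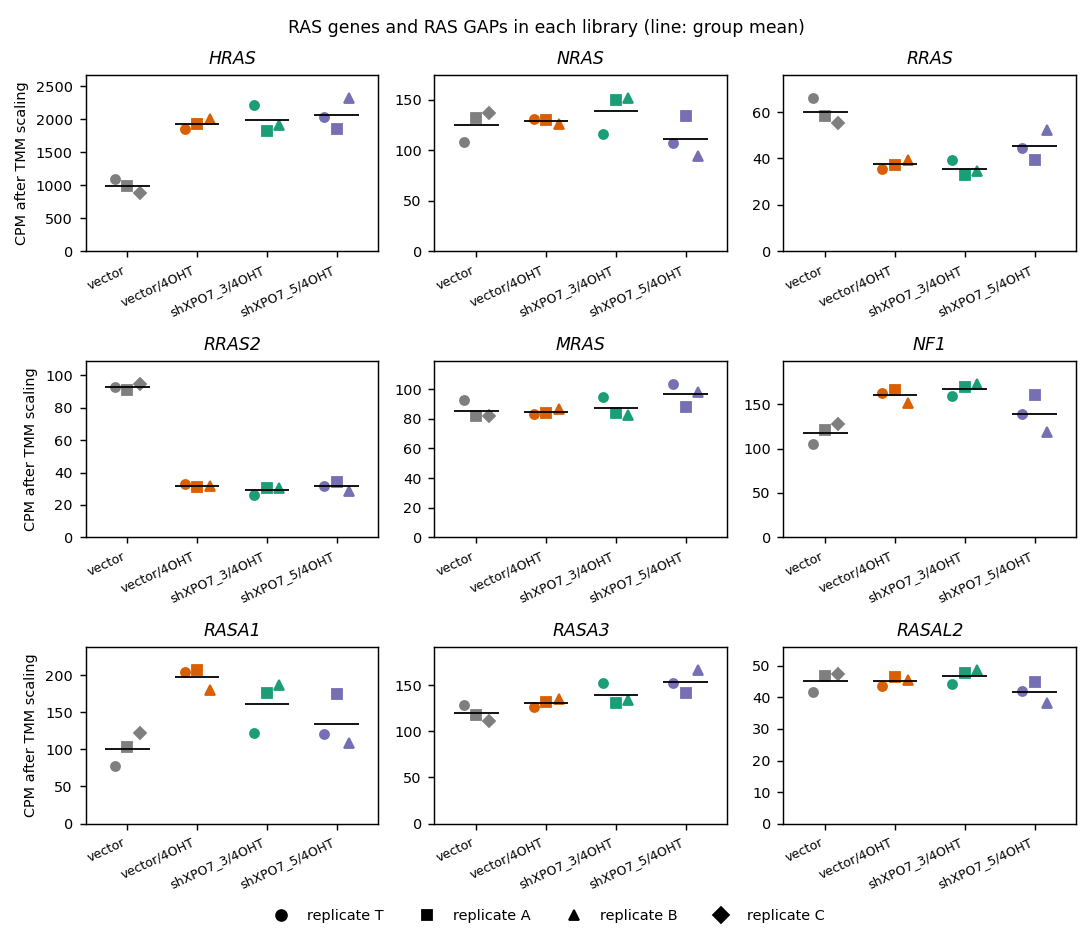
CPM after TMM scaling (y axis, linear, from 0) of each member in the 4 groups (x axis), with 1 point per library shaped by replicate letter and a line at the group mean. HRAS, NF1 and RASA1 were higher and RRAS and RRAS2 lower in vector/4OHT than in vector, with no overlap between the libraries.

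HRAS (chr11:532242-537287, minus strand, GRCh38) encodes one of the classical RAS proteins. Vector libraries had 1092.5, 987 and 880 CPM in replicates T, A and C, and vector/4OHT libraries had 1853, 1932 and 2005 CPM in replicates T, A and B. Every induced library was thus well above every non-induced one. The increase was 0.97 on the log2 scale (SE 0.105, 1.96-fold, adjusted p = 8.71e-06). HRAS took 0.0927% to 0.112% of all counts in vector and 0.183% to 0.199% in vector/4OHT. Its rank by CPM among all genes moved from between 79 and 107 to 43 or 44.

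The neighbour of HRAS on the opposite strand, LRRC56, lies 239 bases away in the annotation with no overlap. It rose by nearly the same log2 change, 1.02 (SE 0.187, adjusted p = 0.000647). Its level was far lower, at 1.04 to 1.61 CPM in vector and 2.35 to 2.87 CPM in vector/4OHT. The strand setting of the counting is not given in the sources used here, and whether reads of HRAS entered the LRRC56 row was not tested.

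RRAS2 (chr11:14277926-14364506, minus strand, GRCh38), also called TC21, belongs to the R-RAS subgroup and is the closest relative of RRAS among the members. It had 92.9, 90.6 and 94.8 CPM in vector, and 32.8, 31.0 and 31.6 CPM in vector/4OHT. The libraries within a group lay close together and the groups far apart. RRAS2 fell by 1.54 on the log2 scale (SE 0.0835, adjusted p = 1.53e-08), the largest change in size among the 9 members.

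RRAS (chr19:49635292-49640201, minus strand, GRCh38), a RAS relative known for its part in integrin-dependent adhesion, fell as well. Its libraries had 66.2, 58.1 and 55.1 CPM in vector, against 35.7, 37.4 and 39.2 CPM in vector/4OHT. The lowest non-induced library was above the highest induced one. RRAS fell by 0.68 on the log2 scale (SE 0.112, adjusted p = 0.00029). SCAF1, which starts 1923 bases from RRAS on the other strand, had a log2 difference of 0.12 (adjusted p = 0.422).

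RASA1 (chr5:87267888-87391931, plus strand, GRCh38) encodes p120 RasGAP, which binds activated receptors through SH2 domains. Vector libraries had 77.1, 103 and 122 CPM, and vector/4OHT libraries had 205, 207 and 181 CPM. The groups did not overlap, although RASA1 varied more between vector libraries than any other member (coefficient of variation 22.5%). It rose by 0.97 on the log2 scale (SE 0.208, 1.95-fold, adjusted p = 0.002).

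NF1 (chr17:31094927-31382116, plus strand, GRCh38) encodes neurofibromin, the RAS GAP lost in neurofibromatosis type 1. It had 105, 120 and 128 CPM in vector and 162, 165 and 151 CPM in vector/4OHT. The difference was smaller than for RASA1 but the libraries again did not overlap. NF1 rose by 0.44 on the log2 scale (SE 0.103, 1.35-fold, adjusted p = 0.00366).

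EVI2A, EVI2B and OMG are read from the opposite strand inside the NF1 gene. EVI2A had 21, 23 and 42 counts in vector and 3, 0 and 1 counts in vector/4OHT, a fall that passed the test (adjusted p = 0.000195). EVI2B, at 0.278 to 0.559 CPM in these 6 libraries, did not pass (log2 difference -0.11, adjusted p = 0.769), and OMG, with at most 10 counts in a library, was not tested. EVI2A thus went the other way from NF1.

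The remaining members gave small differences with intervals on both sides of 0. NRAS (chr1:114704469-114716894, minus strand, GRCh38) had 108, 131 and 137 CPM in vector and 131, 130 and 126 CPM in vector/4OHT, a log2 difference of 0.04 (95% confidence interval -0.26 to 0.34). MRAS (chr3:138347648-138405534, plus strand), which acts with SHOC2 on RAF kinases, had a log2 difference of -0.01 (interval -0.193 to 0.165).

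Among the GAPs, RASA3 (chr13:113977783-114132611, minus strand), a GAP of the GAP1 family, had 129, 118 and 112 CPM in vector and 126, 131 and 135 CPM in vector/4OHT. The difference was 0.13 (interval -0.05 to 0.32, adjusted p = 0.213), and it passed the test once corrected for GC content and transcript length (0.27, adjusted p = 2.66e-05). That setting called 5343 genes higher and 4414 lower of 15284, against 3793 and 3984 in the main fit. RASAL2 (chr1:178094141-178484147, plus strand) was at 41.6 to 47.3 CPM in vector and 43.5 to 46.5 CPM in vector/4OHT, with a log2 difference of -0.0018 (interval -0.18 to 0.18). For NRAS, MRAS and RASAL2 the sign changed under some of the alternatives, so no direction can be given.

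**Figure D2:**
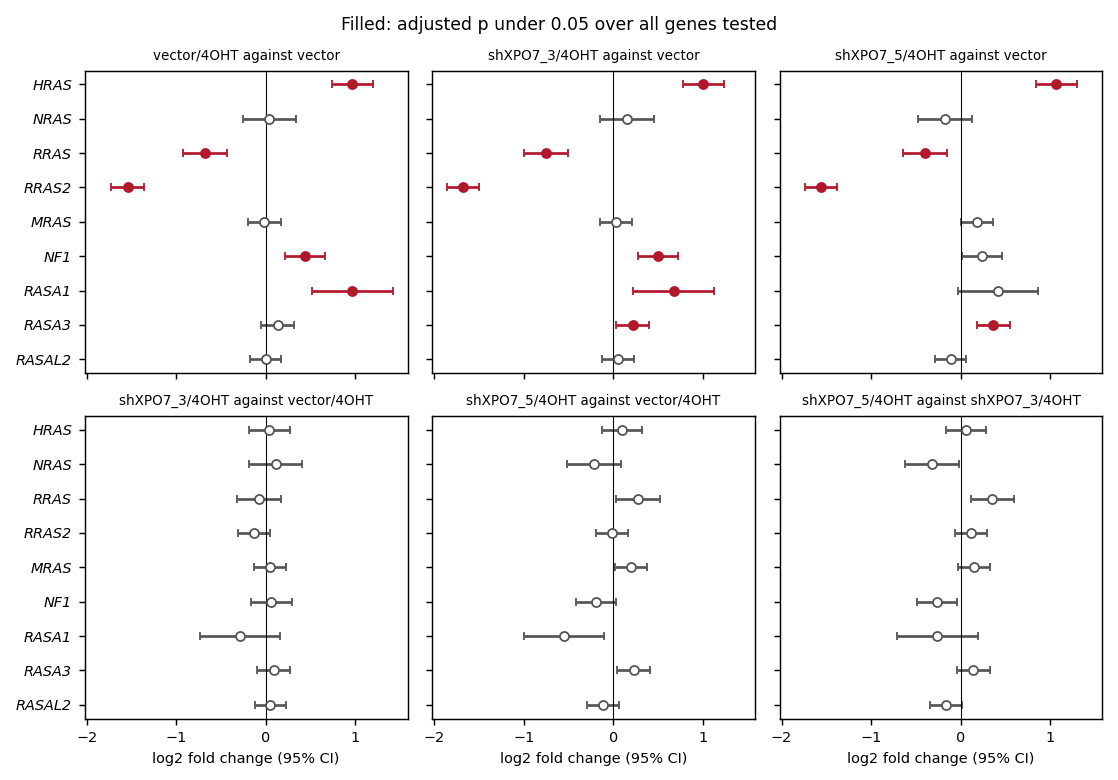
Log2 fold change (x axis) of each member in the 6 comparisons, with bars for the 95% confidence interval and filled points for an adjusted p under 0.05 over all genes tested. The upper row compares each induced group with vector, where HRAS, RRAS and RRAS2 are filled in every panel; the lower row compares the induced groups with each other, where no point is filled.

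The promoter windows of RRAS2, RASA1 and NF1 are shown here with the motif matches they hold. Windows are the 250 bases before the RefSeq gene start (GRCh38.p14), 5′ to 3′ on the gene's strand, and were found for 8 of the 9 members, with no entry for RRAS. Capitals mark matches on either strand to 6 motifs: AP-1 (TGANTCA), E-box (CACGTG), ETS (CCGGAAG), SP1 (GGGCGG), NF-Y (CCAAT) and CREB (TGACGTCA). The windows are RRAS2 at chr11:14364507-14364756, RASA1 at chr5:87268687-87268936 and NF1 at chr17:31094727-31094976, and stand for the largest fall and the 2 GAPs that rose:
RRAS2: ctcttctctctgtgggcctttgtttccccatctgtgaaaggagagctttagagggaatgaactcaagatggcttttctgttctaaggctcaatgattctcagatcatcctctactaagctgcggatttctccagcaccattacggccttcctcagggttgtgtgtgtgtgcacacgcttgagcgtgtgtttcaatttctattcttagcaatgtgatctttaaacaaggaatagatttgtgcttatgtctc
RASA1: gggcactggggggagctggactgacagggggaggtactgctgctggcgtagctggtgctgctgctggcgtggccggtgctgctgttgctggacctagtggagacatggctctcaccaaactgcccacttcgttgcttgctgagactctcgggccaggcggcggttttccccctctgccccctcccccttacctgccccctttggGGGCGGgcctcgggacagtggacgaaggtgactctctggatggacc
NF1: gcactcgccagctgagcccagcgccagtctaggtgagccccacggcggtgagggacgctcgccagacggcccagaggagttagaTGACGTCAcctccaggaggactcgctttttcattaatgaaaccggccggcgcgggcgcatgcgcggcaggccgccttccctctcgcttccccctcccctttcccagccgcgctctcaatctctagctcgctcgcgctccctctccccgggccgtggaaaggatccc
The RRAS2 window has a GC content of 44.0% and held none of the 6 motifs. It lies before the outermost annotated start, near which 2 of 11 RRAS2 transcripts in GENCODE 29 begin (within 50 bases), so it is not the window before most RRAS2 transcripts. Most transcripts also begin elsewhere for HRAS (4 of 11 near the window), NF1 (4 of 23), RASAL2 (1 of 5), MRAS (0 of 11) and NRAS (0 of 1). The HRAS, MRAS and RASA1 windows lie inside the annotated genes, and 3 of 6 RASA1 transcripts begin near the end of its window. The RASA1 window (GC content 66.0%) held 1 SP1 match, a motif found in 42.6% of all 35116 promoter windows of this length. The NF1 window (GC content 67.2%) held 1 CREB match, a motif found in 1.65% of windows. None of the 8 windows held an AP-1 match (6.57% of all windows). HRAS held 3 SP1 matches and the ETS and NF-Y motifs once each, and NRAS 2 SP1 matches and the E-box. RASA3 held 5 SP1 matches and 1 NF-Y match, RASAL2 held 3 SP1 matches, and MRAS had no match.

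Levels of different genes were compared as CPM per kb of exons (the union of all annotated exons of a gene). HRAS was the highest member by far in every group, at 532 ± 57.4 CPM per kb in vector (SD, n = 3) and 1041 ± 40.9 in vector/4OHT. Every group carried the fusion, so the HRAS row may hold its reads, and the length used is that of the chromosomal gene. In vector the order went on with RRAS (51.6 ± 4.97), NRAS (28.2 ± 3.47), RRAS2 (26.9 ± 0.600) and RASA3 (25.1 ± 1.82), of which NRAS overlapped RRAS2 and RRAS2 overlapped RASA3 in their libraries. RASA1 (19.3 ± 4.35), MRAS (13.4 ± 0.977), NF1 (4.34 ± 0.417) and RASAL2 (2.82 ± 0.198) followed without overlap between neighbours.

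After induction RASA1 stood second at 37.7 ± 2.81 CPM per kb, above RRAS at 32.2 ± 1.51. RRAS2 moved from rank 4 to rank 7, at 9.21 ± 0.253, and NF1 and RASAL2 stayed lowest at 5.88 ± 0.270 and 2.82 ± 0.0945. In vector/4OHT no neighbours in the order overlapped. With the length of the longest transcript in place of the union of exons, RRAS2 was at 45.6 ± 1.02 CPM per kb in vector, rank 3, above RASA3 and NRAS without overlap, and RASA1 overlapped MRAS there. By that length RASA1 and RRAS overlapped in vector/4OHT, and NF1 was at 12.8 CPM per kb, since its exon union of 27130 bases is far longer than its longest transcript of 12425 bases. Of the summed level per kb of the 5 RAS genes, the HRAS row made up 81.5% ± 1.39 in vector and 92.6% ± 0.183 in vector/4OHT. How much of that came from the fusion is not known, so these shares need not be those of the chromosomal genes. The share of RRAS2 was 4.15% ± 0.437 and 0.820% ± 0.0494.

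**Figure D3:**
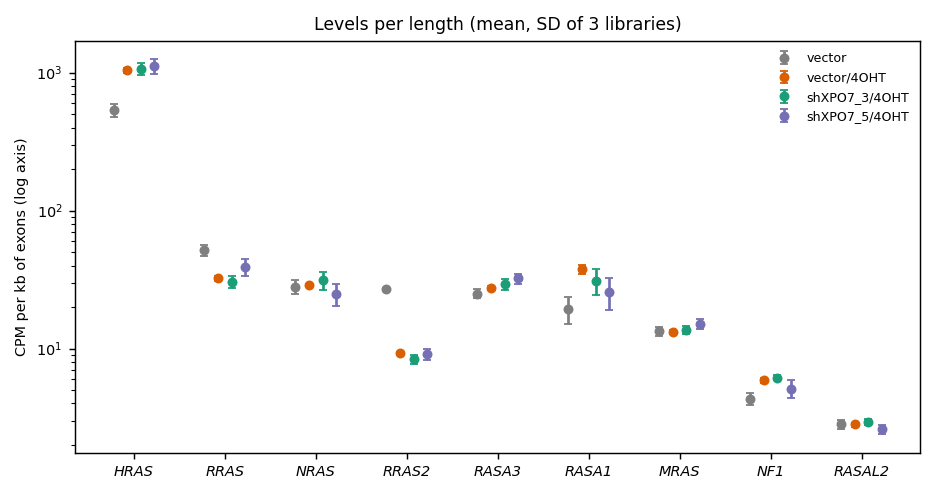
CPM per kb of exons (y axis, log scale) of the members, ordered by their level in vector (x axis), with points at the mean and bars for the SD of 3 libraries in each group. HRAS, whose row may hold reads of the fusion, lies above all other members in every group, and RRAS2 drops from 26.9 to 9.21 between vector and vector/4OHT.

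The rest of the pathway was read from lists of genes around RAS, chosen with earlier results of these data known. In vector/4OHT against vector, 50.9% of all genes tested were called, 24.8% higher and 26.1% lower. The list counts were not tested against that share. Genes called in vector/4OHT against vector were counted, and the genes with the largest changes are given; lower genes outside the naming rule, which asks for an average log2 CPM of at least 2, are named where counts are small and were chosen after their values were seen.

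Of 6 exchange factors tested (8 listed), 3 were higher and 1 was lower. RASGRP3, a diacylglycerol-responsive exchange factor, rose from 3.33 ± 0.493 to 19.3 ± 0.170 CPM (log2 change 2.53, SE 0.116, adjusted p = 3.33e-09). RASGRF2, a calcium-responsive one, rose from 58.2 ± 3.10 to 96.5 ± 2.12 CPM (0.73, SE 0.0709, adjusted p = 3.37e-06). RASGRF1 was also higher and RASGRP1 lower, both at under 2 CPM, while SOS1 (0.15, adjusted p = 0.425) and SOS2 (0.07, adjusted p = 0.777), the exchange factors recruited by growth factor receptors, did not pass.

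Of the other RAS GAPs, 5 of 7 were tested and 2 were lower, with none higher. These were RASA4 (5.49 to 2.33 CPM, log2 change -1.24) and RASA4B (1.03 to 0.379 CPM, -1.44). They are near-identical copies between which reads may be split, so the single values are uncertain. RASA2 (0.27, adjusted p = 0.404) and DAB2IP (-0.24, adjusted p = 0.085) were among those that did not pass.

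Of 17 other RAS family genes tested (22 listed), 8 were higher and 3 lower. RASL12 rose from 1.39 ± 0.297 to 13.1 ± 0.999 CPM (log2 change 3.24, SE 0.139, adjusted p = 1.82e-09). DIRAS3, a RAS-like protein known as a growth inhibitor, rose from 2.08 ± 0.474 to 15.7 ± 0.253 CPM (2.92, SE 0.133, adjusted p = 3.24e-09). DIRAS1 fell by 0.68 (adjusted p = 0.00084) and RHEB, the activator of mTORC1, fell by 0.32 on the log2 scale (adjusted p = 0.00482). The third lower gene was RASL11A, at under 3 CPM.

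Effectors had 6 higher and 2 lower of 18 tested (21 listed). RGL1, an exchange factor for RAL, rose from 35.7 ± 3.23 to 75.1 ± 1.43 CPM (log2 change 1.07, SE 0.0768, adjusted p = 2.05e-07), and PIK3CB, a catalytic subunit of PI3 kinase, rose by 0.72 (adjusted p = 4.48e-05). ARAF, a RAF kinase, fell by 0.36 (adjusted p = 0.0087), and PLCE1, a RAS-binding phospholipase, fell from 7.33 to 1.52 CPM. Of the 4 core MEK and ERK kinases, MAPK3, which encodes ERK1, was lower by a log2 change of -0.32 (adjusted p = 0.0128), and the other 3 did not pass. Without vector replicate T, or without vector/4OHT replicate T, MAPK3 did not pass either (adjusted p = 0.0552 and 0.0587).

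Of the 6 adaptors upstream of RAS, SHC1 (0.66, adjusted p = 8.23e-05), CBL (0.48, adjusted p = 0.00319) and GRB2 (0.43, adjusted p = 0.000547) were higher, and GAB1 fell by 0.83 on the log2 scale (adjusted p = 0.000791). Of 8 genes for RAS lipid modification, processing and turnover, 4 were higher and 1 lower. GOLGA7, a subunit of the RAS palmitoyltransferase, rose by 0.57 (adjusted p = 9.6e-05) and RCE1, the protease that trims prenylated RAS, by 0.45 (adjusted p = 0.00424), beside ZDHHC9 and LZTR1, whose calls were lost with upper-quartile scaling (adjusted p = 0.0697 and 0.0881). FNTB, a farnesyltransferase subunit, was lower at 1.25 and 0.721 CPM.

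Genes transcribed in response to ERK had the largest median change of the lists around RAS. Of 16 listed and tested, 14 were higher and 1 lower, and their median log2 change was 1.25, against -0.00675 for all genes tested. Of all genes tested, 24.8% were called higher. The list was chosen with earlier results of these data known, so its counts are a description only. DUSP6, an ERK phosphatase, rose from 43.5 ± 0.672 to 488 ± 5.10 CPM (log2 change 3.49, SE 0.0561, adjusted p = 3.43e-12), and DUSP4, another MAP kinase phosphatase, from 2.50 ± 0.0750 to 19.8 ± 0.563 CPM (2.99, SE 0.0897, adjusted p = 1.14e-10). FOSL1, which encodes the AP-1 subunit FRA1, fell from 145 ± 11.7 to 54.2 ± 1.12 CPM (-1.42, SE 0.0896, adjusted p = 6.56e-08). ETV5 was the 1 gene of the list that did not pass (0.15, adjusted p = 0.193).

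**Figure D4:**
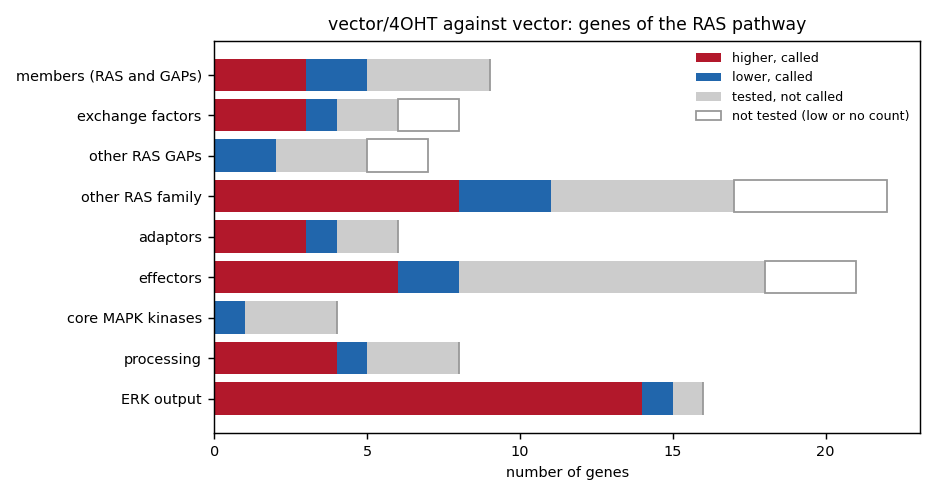
Number of genes (x axis) in each list around RAS (y axis) that were called higher, called lower, tested but not called, or not tested, in vector/4OHT against vector. Of the ERK output genes 14 of 16 were called higher, while of the 9 members 3 were higher and 2 lower. Of all genes tested, 24.8% were called higher and 26.1% lower.

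The next comparison asked whether knockdown of XPO7 changed the members in induced cells. With shXPO7_3 no member was called against vector/4OHT, where 0.124% of genes were called (19 genes; 0.0916% higher and 0.0327% lower). At an unadjusted p under 0.05, 6.41% of genes passed and again no member, and DESeq2 called 88 genes and no member. HRAS was at 2222, 1817 and 1912 CPM, on both sides of the vector/4OHT libraries (log2 difference 0.04, 95% interval -0.19 to 0.27).

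The other members stayed near their vector/4OHT levels with shXPO7_3. RASA1 had 122, 176 and 186 CPM, of which replicate T was the lowest, and gave the largest difference in size (-0.29, interval -0.74 to 0.16, adjusted p = 0.999). RRAS2 had 26.4, 30.4 and 30.2 CPM, all below the vector/4OHT libraries, with a difference of -0.14 (interval -0.32 to 0.05, adjusted p = 0.987), whereas 14.6% of all genes had libraries that did not overlap. The intervals of the other 6 members covered 0 and lay between -0.32 and 0.41.

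With shXPO7_5 no member was called against vector/4OHT, where 0.589% of genes were called (90 genes). For every member but RRAS2 (-0.02) the fitted difference was larger in size than with the other shRNA, which was not itself tested, and 4 members passed an unadjusted p under 0.05, which 21.6% of all genes did; DESeq2 called 426 genes and no member. RASA3 was at 153, 142 and 167 CPM in replicates T, A and B (log2 difference 0.23, SE 0.0843, adjusted p = 0.187). RRAS was at 44.3, 39.5 and 52.4 CPM (0.28, SE 0.112, adjusted p = 0.207), and MRAS at 104, 88.2 and 98.3 CPM (0.19, SE 0.0821, adjusted p = 0.216). These 3 were above every vector/4OHT library. RASA1, at 121, 175 and 109 CPM, was below them (-0.55, SE 0.207, adjusted p = 0.195). Non-overlapping libraries were found for 26.8% of all genes.

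GC content moved with these values. Over 14864 genes, the log2 difference of shXPO7_5/4OHT from vector/4OHT had a Spearman's rho of 0.677 with transcript GC content, against 0.112 for shXPO7_3/4OHT, a description over genes that share the same libraries. RRAS (GC percentile 94.5 among tested genes), RASA3 (73.5) and MRAS (56.6) were the positive ones, together with HRAS (97.7), and the 5 members below percentile 40, RASA1 among them, were all negative in the as-counted fit. Once corrected for GC content and transcript length, RRAS went from 0.28 to 0.07, RASA3 from 0.23 to 0.10 and MRAS from 0.19 to 0.15. RASA1 went from -0.55 to -0.42 (adjusted p = 0.149), and HRAS, NRAS, RRAS2, NF1 and RASAL2 changed sign. The part of GC content in these differences beyond that was not tested.

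The count of calls also depended on 1 library. Without shXPO7_5/4OHT replicate A, whose GC dependence was the weakest of its group, 5 members were called (RRAS, RASA3 and MRAS higher, RASA1 and NF1 lower). In that fit 3634 of 15790 genes tested were called, 1630 higher and 2004 lower. RASA1 was then at -0.78 (adjusted p = 0.0348) and NF1 at -0.31 (adjusted p = 0.0433).

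**Figure D5:**
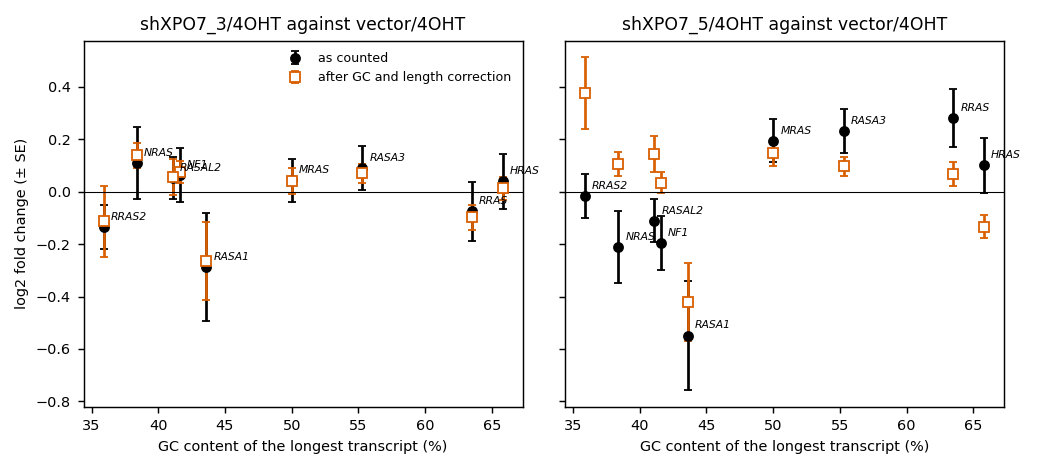
Log2 fold change against vector/4OHT (y axis, bars for the SE) of each member by the GC content of its longest transcript (x axis, percent), as counted (filled circles) and corrected for GC content and transcript length (open squares), for shXPO7_3/4OHT (left) and shXPO7_5/4OHT (right). With shXPO7_5 the as-counted values of the members with high GC content are above 0 and those with low GC content below it, and the corrected HRAS value is -0.133.

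The 2 shRNAs were then compared directly. No member was called in shXPO7_5/4OHT against shXPO7_3/4OHT, with 0.0131% of genes called (2 genes), 11.9% of genes at an unadjusted p under 0.05, and 27 genes but no member called by DESeq2. The largest difference in size was that of RRAS, whose libraries did not overlap, as for 9.71% of all genes, and were higher with shXPO7_5 (0.36, 95% interval 0.11 to 0.60, adjusted p = 0.388). NRAS (-0.32, interval -0.62 to -0.02) and NF1 (-0.26, interval -0.48 to -0.04) had the next intervals on 1 side of 0, with overlapping libraries. Here the rho with GC content over genes was 0.699.

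Against the non-induced cells, both knockdown groups showed the changes of HRAS, RRAS2 and RRAS. These comparisons share the vector libraries with the first one and are given as values side by side. With shXPO7_3, 6 members were called (50.6% of all genes were, 24.5% higher and 26.2% lower): HRAS (1.01), NF1 (0.50), RASA1 (0.68) and RASA3 (0.22, adjusted p = 0.0457) were higher, and RRAS2 (-1.68) and RRAS (-0.75) were lower. RASA1 overlapped between these groups, while 55.4% of all genes did not, and its call was lost without vector replicate T or without shXPO7_3/4OHT replicate A or B (adjusted p = 0.0604, 0.0545 and 0.0825). The RASA3 call was lost without vector replicate A or C, or without shXPO7_3/4OHT replicate T or B (adjusted p from 0.0663 to 0.187), and in 9 of 15 alternatives in all.

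With shXPO7_5, 4 members were called (52.3% of all genes were, 25.3% higher and 27.0% lower, and 53.9% had libraries that did not overlap). HRAS (1.07) and RASA3 (0.36, adjusted p = 0.00331) were higher, and RRAS2 (-1.56) and RRAS (-0.40, adjusted p = 0.0103) were lower, the RRAS call being lost with only these groups in the fit (adjusted p = 0.0516). NF1 (0.24, adjusted p = 0.0679) and RASA1 (0.42, adjusted p = 0.112) did not pass, and both passed once GC content and transcript length were corrected for (a setting that called 9839 of 15284 genes; 0.46, adjusted p = 6.92e-07, and 0.54, adjusted p = 0.0065), as did MRAS (0.21, adjusted p = 0.00193). Without a single library, MRAS passed when vector replicate T or shXPO7_5/4OHT replicate A was left out (adjusted p = 0.0353 and 0.0224), and NF1 when vector replicate C or shXPO7_5/4OHT replicate B was (adjusted p = 0.0478 and 0.0156).

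Among the lists around RAS, no gene was called in either knockdown group against vector/4OHT. Of all genes tested, 0.124% were called with shXPO7_3 and 0.589% with shXPO7_5. DUSP6 was at 504 ± 13.01 CPM with shXPO7_3 and 505 ± 14.8 CPM with shXPO7_5, beside 488 ± 5.10 CPM in vector/4OHT. RASGRP3 was at 25.1 ± 2.20 and 21.4 ± 1.72 CPM (adjusted p = 0.293 and 0.361), and RASL12 at 19.0 ± 1.94 and 17.0 ± 0.559 CPM (adjusted p = 0.118 and 0.138). These differences did not pass the test.

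For each member, up to 3 genes whose log2 CPM, centred on its own mean, differed least from it over the 12 libraries were sought among 10422 genes. The measure is the root mean square difference in log2 units, and the patterns share the libraries and their GC dependence. Genes close to HRAS included ERCC1 (0.0537) and TRPV2 (0.0545), and those close to RRAS2 included ANKRD13A (0.0815) and PPP1R3C (0.0816). RRAS was closest to CACFD1, MGLL and CNN2 (0.0517 to 0.0544), RASA1 to SAMD5, TVP23B and EPRS1 (0.0606 to 0.0778), and NF1 to CEP20, UBXN7 and SAR1B (0.0484 to 0.0544). The other members varied little over the libraries, and their nearest genes were RNF2, CDK19 and ACER3 for NRAS, UBAP2L, EIF3K and RPL27A for MRAS, PPP5C, SEC13 and FTSJ1 for RASA3, and LUC7L2, SNRPD1 and LMBR1 for RASAL2, all within 0.0493.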

How the data were processed

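Total RNA of IMR90 ER:RAS cells (7 days in culture, medium change at day 4) was made into 12 stranded mRNA libraries and sequenced. The deposited values are counts per gene: per the labels, CASAVA 1.8.4, TopHat2 2.0.11 and featureCounts 1.18.0 were used by the authors with build GRCh37 (hg19), and the annotation, strand setting and treatment of multimapping reads were not given in the sources used here.

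Counts were tested as deposited with edgeR 4.0.16 (R 4.3.3; TMM factors, filterByExpr, quasi-likelihood test, all 12 libraries in 1 fit), with Benjamini-Hochberg adjustment over 15284 genes tested; DESeq2 1.42.0 was an alternative. All 9 members passed the filter. CPM were computed from the deposited counts with the TMM factors. Exact permutation tests of 3 against 3 libraries cannot go below 0.1. Coordinates, lengths and GC content are from GENCODE 29 (GRCh38), joined by Ensembl identifier, and 97.3% of genes tested had a GC value. The 92 spike-in entries had no count. The fit was also run on simulated data, and the outcome is not reported here. Replicate pairs differed by more than sampling noise (chi-square per gene 4.57 to 61.7), so each library was counted.

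The members, lists and naming rule were chosen with earlier results of these data known. Named were the 9 members, XPO7, neighbours and near copies with counts, the 3 most alike genes per member and, per list, up to 2 rises and 2 falls whose average log2 CPM reached 2. A few genes that this rule names are not reported here.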

Additional observations from a re-analysis of the deposited data

How the results depend on the processing

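The 5 calls among the members in vector/4OHT against vector held under all 15 alternatives, in the same direction. The ranges of their log2 changes were 0.864 to 1.07 for HRAS, from 0.807 upwards for RASA1, 0.342 to 0.541 for NF1, -1.83 to -1.51 for RRAS2 and -0.777 to -0.588 for RRAS. Leaving out 1 library at a time gave 5 members called in this comparison each time, 0 in shXPO7_3/4OHT against vector/4OHT, 0 to 5 in shXPO7_5/4OHT against vector/4OHT, 0 in the direct comparison, 4 to 5 in shXPO7_3/4OHT against vector and 4 to 5 in shXPO7_5/4OHT against vector. These fits tested 15460 to 15800 genes. In the same order, genes called higher were 3151 to 3598, 0, 1 to 1630, 1 to 2, 3065 to 3580 and 3316 to 4133. Genes called lower were 3492 to 3869, 1, 1 to 2004, 0 to 2, 3564 to 4165 and 3500 to 4426. Upper-quartile scaling moved the median log2 difference of all genes in vector/4OHT against vector to -0.105 (2872 higher and 4633 lower, against 3793 and 3984), and in shXPO7_3/4OHT against vector to -0.102 (2843 higher and 4630 lower, against 3744 and 3997).

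With the correction for GC content and length, 7 members were called in shXPO7_5/4OHT against vector instead of 4, while 9839 of 15284 genes were called instead of 7999. With the replicate block and this correction together, 7 were called there (9489 genes in all), 2 in shXPO7_5/4OHT against vector/4OHT (RRAS2 and RASA1) and 1 in the direct comparison (RRAS2). Of all 15284 genes, 616 were called higher and 341 lower in the second of these, and 30 and 25 in the direct comparison. Correlations of same-letter deviations ran from -0.234 to 0.589 (median 0.108), and 8 of 15 were over 0.1. Those of different letters ran from -0.62 to 0.512 (median -0.0771), and 14 of 39 were over 0.1. These values do not settle whether the replicate letters pair the libraries. With the letter as a block alone, the members called were 5, 0, 0, 0, 5 and 6 in the order of the comparisons in the text. Of 15284 genes tested, those called higher in the same order were 3956, 9, 112, 2, 3825 and 3444. Those called lower were 4031, 4, 37, 1, 4050 and 3886. Of the 12 libraries, 6 correlated best with their own letter in another group. Replicate C could not, since that letter occurs only in the vector group.

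Signs changed as follows, all in values that did not pass the main test, and the cause was not tested. With the GC correction, vector/4OHT against vector gave NRAS -0.0399 and MRAS 0.0663; shXPO7_5/4OHT against vector/4OHT gave HRAS -0.133, NRAS 0.105, RRAS2 0.376, NF1 0.0348 and RASAL2 0.145; the direct comparison gave HRAS -0.147 and RASAL2 0.0882; shXPO7_5/4OHT against vector gave NRAS 0.0652 and RASAL2 0.123. With the replicate block and the correction, the same comparisons gave NRAS -0.0836 and MRAS 0.0736; HRAS -0.133, NRAS 0.105, RRAS2 0.374 (adjusted p = 0.0179), NF1 0.0341 and RASAL2 0.145; HRAS -0.146 and RASAL2 0.0882; NRAS 0.0213 and RASAL2 0.0548; and shXPO7_3/4OHT against vector gave RASAL2 -0.0334. Upper-quartile scaling gave NRAS -0.0529 in vector/4OHT against vector, RRAS2 0.0324 in shXPO7_5/4OHT against vector/4OHT, and MRAS -0.0649 and RASAL2 -0.0430 in shXPO7_3/4OHT against vector. RASAL2 in vector/4OHT against vector was 0.0414 with the block, 0.00777 without a filter and 0.00115 with only those groups in the fit, and MRAS in shXPO7_3/4OHT against vector was -0.00137 with the stricter filter of 1 CPM in 6 libraries. Leaving out 1 library changed the sign of NRAS (-0.0542 to 0.111), MRAS (-0.0563 to 0.0488) and RASAL2 (-0.0572 to 0.0336) in vector/4OHT against vector. It also changed the sign of HRAS (-0.0550 to 0.0988) and MRAS (-0.0240 to 0.0766) in shXPO7_3/4OHT against vector/4OHT, RRAS2 (-0.0796 to 0.0536) in shXPO7_5/4OHT against vector/4OHT, HRAS (-0.0263 to 0.156) in the direct comparison, and RASAL2 (-0.00511 to 0.0855) and MRAS (-0.0480 to 0.0918) in shXPO7_3/4OHT against vector.

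Per kb of the longest transcript instead of the exon union, vector/4OHT levels were 1565 for HRAS, 35.8 for RRAS, 15.6 for RRAS2, 18.6 for MRAS, 12.8 for NF1, 31.2 for RASA3 and 3.13 for RASAL2. For the lists around RAS, alternatives chosen after seeing the data left 46 of 52 called genes called wherever they were tested, with no change of sign. EVI2A, PIK3CG, RASA4B, RASGRP1 and RASL11A were tested in 14 alternatives and the other called genes in 15. The core kinases called were 2 with upper-quartile scaling, 3 with the GC correction, 3 with the block and the correction, and 0 to 1 with 1 library left out; the processing genes were 3 with upper-quartile scaling (ZDHHC9 and LZTR1 lost); the other GAPs and the neighbours were 1 each with the stricter filter, which tests fewer genes.

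Counts of all genes called in the knockdown comparisons depended on the setting. For shXPO7_3/4OHT against vector/4OHT, 19 genes became 8 with upper-quartile scaling, 30 without a filter, 88 with DESeq2, 343 with the GC correction, 381 with the block and the correction, 2 with only those groups in the fit and 1 without any single library of either group. For shXPO7_5/4OHT, 90 became 217 without a filter, 149 with the replicate block, 426 with DESeq2, 477 with the GC correction, 957 with the block and the correction and 10 with only those groups. Without 1 library it was 2 to 3634, the highest without shXPO7_5/4OHT replicate A. In the direct comparison, 2 became 20 without a filter, 27 with DESeq2, 40 with the GC correction, 55 with the block and the correction and 0 with only those groups.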
